A study of Mus musculus with 6 samples.

Results

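Adora1, the gene of the adenosine A1 receptor, was close to silent in control cells and clearly expressed in cells with a hairpin against CdGAP, and it is described here with 9 other genes that produce, carry, sense or remove adenosine. The 10 genes were the adenosine receptors Adora1, Adora2a and Adora2b, the cell surface enzymes Nt5e, Entpd1 and Entpd2, the adenosine-consuming enzymes Ada and Adk, and the nucleoside transporters Slc29a1 and Slc29a2. They were picked by symbol among the 41214 genes of each count table, and all 10 were found. The group was assembled because Adora1 switched on, so the difference in Adora1 is a description with no test. The other 9 were named for their function with results of this comparison already known.

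RNA was sequenced from mouse mammary tumour explant cells that express the receptor tyrosine kinase ErbB2 and derive from NMuMG, a line of normal mammary gland epithelium. Of the 6 libraries, 3 were labelled wild type and carried a control short hairpin RNA (shCTL), and 3 were labelled as CdGAP knockdown and carried a hairpin against CdGAP (shCdGAP). CdGAP, encoded by Arhgap31, is a GTPase-activating protein for Cdc42 and Rac1. The ErbB2 expression and the cell source are shared by both groups. Whether a group is a clone or a pool of cells is not in the labels, nor is the origin of the replicates. The p-values therefore reflect variation among these libraries, and that variation may be technical.

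Extracellular ATP is broken down by ectonucleotidases of the ENTPD family to AMP, and the enzyme encoded by Nt5e (CD73) turns AMP into adenosine. Adenosine acts on G protein-coupled receptors: the A1 receptor couples to inhibitory G proteins (Gi) that lower cyclic AMP, and the receptors encoded by Adora2a and Adora2b couple to stimulatory G proteins that raise it. Equilibrative transporters carry adenosine across the membrane, and inside the cell it is phosphorylated to AMP by adenosine kinase (Adk) or deaminated to inosine by adenosine deaminase (Ada). In tumours, adenosine made by CD73 is best known for dampening immune cells.

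Total counts ran from 19176540 to 26824249 fragments per library. Arhgap31 stood at 13.2, 14.4 and 15.1 CPM (counts scaled by TMM to a common library total) in shCTL replicates 1 to 3 and at 1.70, 9.16 and 8.21 CPM in shCdGAP replicates 1 to 3. The groups did not overlap, but the difference missed the threshold of an adjusted p under 0.05 (log2 fold change −1.16 ± 0.55, SE, adjusted p = 0.19), and passed it without shCdGAP replicate 1 (−0.71, adjusted p = 0.00407). That library stood apart from its replicates in general: the chi-square per degree of freedom over genes was 155 and 203 against shCdGAP replicates 2 and 3, which gave 13.9 against each other. To a lesser degree so did shCTL replicate 1, at 27.8 and 28.7 against shCTL replicates 2 and 3, which gave 3.16 against each other. Of the 9 mammary epithelial markers, Cdh1 (232 to 768 CPM, adjusted p = 0.00193) and Krt7 (1.86 to 5.57 CPM, adjusted p = 0.016) rose in shCdGAP. Krt8, Krt18 and Krt19 were abundant and not called, with shCTL and shCdGAP means of 3610 and 4470, 3040 and 3430, and 666 and 890 CPM. Epcam had 32, 29 and 31 fragments in shCTL and 0 in each shCdGAP library, Krt5 had 20, 38 and 42 against 0, 1 and 1, Krt14 had at most 2 in any library, and Cldn7 had 0 in every library. Of 13483 genes tested, 21.7% were called between the groups, 10.4% higher and 11.4% lower in shCdGAP, and 44.1% had groups that did not overlap.

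The stretches just before the start sites of the 3 genes that carry most of what follows, Adora1, Ada and Adk, are shown because the series title concerns a co-repressor acting with Zeb2, whose family binds CACCTG, and because these genes moved in different directions. Each is 250 bases before a RefSeq start (build GRCm38.p6), read 5′ to 3′ on the gene's strand, with capitals marking CACCTG and the GC box GGGCGG on either strand.

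Adora1, chr1:134235458-134235707, minus strand: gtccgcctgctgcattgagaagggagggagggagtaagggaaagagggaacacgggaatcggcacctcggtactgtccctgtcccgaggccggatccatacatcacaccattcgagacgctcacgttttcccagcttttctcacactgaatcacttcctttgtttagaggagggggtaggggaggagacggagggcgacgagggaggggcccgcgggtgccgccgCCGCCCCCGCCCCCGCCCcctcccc

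Ada, chr2:163750240-163750489, minus strand: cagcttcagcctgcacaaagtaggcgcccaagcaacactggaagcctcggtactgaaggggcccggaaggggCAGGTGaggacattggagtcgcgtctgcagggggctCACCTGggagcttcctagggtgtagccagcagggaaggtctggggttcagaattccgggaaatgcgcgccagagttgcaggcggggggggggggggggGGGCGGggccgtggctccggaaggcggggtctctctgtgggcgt

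Adk, chr14:21052324-21052573, plus strand: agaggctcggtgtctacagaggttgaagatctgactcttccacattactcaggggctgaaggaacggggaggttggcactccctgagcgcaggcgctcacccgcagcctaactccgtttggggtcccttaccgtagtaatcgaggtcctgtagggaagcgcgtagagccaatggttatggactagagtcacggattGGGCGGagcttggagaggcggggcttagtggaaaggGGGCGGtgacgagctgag

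The Adora1 stretch held 0 matches to CACCTG and 3 adjoining matches to GGGCGG, all written CCGCCC on this strand, from 25 to 8 bases before the start. The Ada stretch held 2 matches to CACCTG, the outer from 178 to 173 and the inner from 142 to 137 bases before the start, and 1 match to GGGCGG. The Adk stretch held 0 matches to CACCTG and 2 to GGGCGG. Over all 32851 RefSeq windows of this length, 17.2% held CACCTG and 32.7% held GGGCGG on either strand. The full cyclic AMP response element TGACGTCA was found in none of the 19 windows of these genes, against 1.55% of all windows. The motifs searched can overlap each other, and a match is a string of letters, not a measured binding site. RefSeq windows were matched for 9 of the 10 genes. Adora1 and Adk each have a further RefSeq start downstream, and the stretch before the second Adora1 start lies inside an annotated exon, as does that of Nt5e. That second Adora1 stretch held 1 match to CACCTG and 0 to GGGCGG, so the count of 0 applies to the printed stretch.

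Among the receptors, Adora1 (ENSMUSG00000042429, GRCm38 chromosome 1, 134199223 to 134235431, minus strand) had 6, 5 and 8 fragments in shCTL replicates 1 to 3 and 553, 440 and 604 fragments in shCdGAP replicates 1 to 3. As levels these were 0.310, 0.182 and 0.301 CPM for shCTL (mean 0.264 ± 0.0713, SD, n = 3), against 24.7, 20.0 and 23.9 CPM for shCdGAP (mean 22.9 ± 2.56). Every shCdGAP library was far above every shCTL library, and the 3 shCdGAP libraries lay close together, shCdGAP replicate 1 among them. The mean level was 86.6-fold higher, and the ratio from the summed counts, 19 against 1597, was 88.6 with an exact 95% binomial interval of 56.6 to 148 that covers counting error only. Adora1 entered the tested genes through its shCdGAP libraries alone, since its shCTL counts were all below 10. The log2 fold change was 6.43 and lay between 6.20 and 6.55 when any 1 library was left out.

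**Figure D1:**
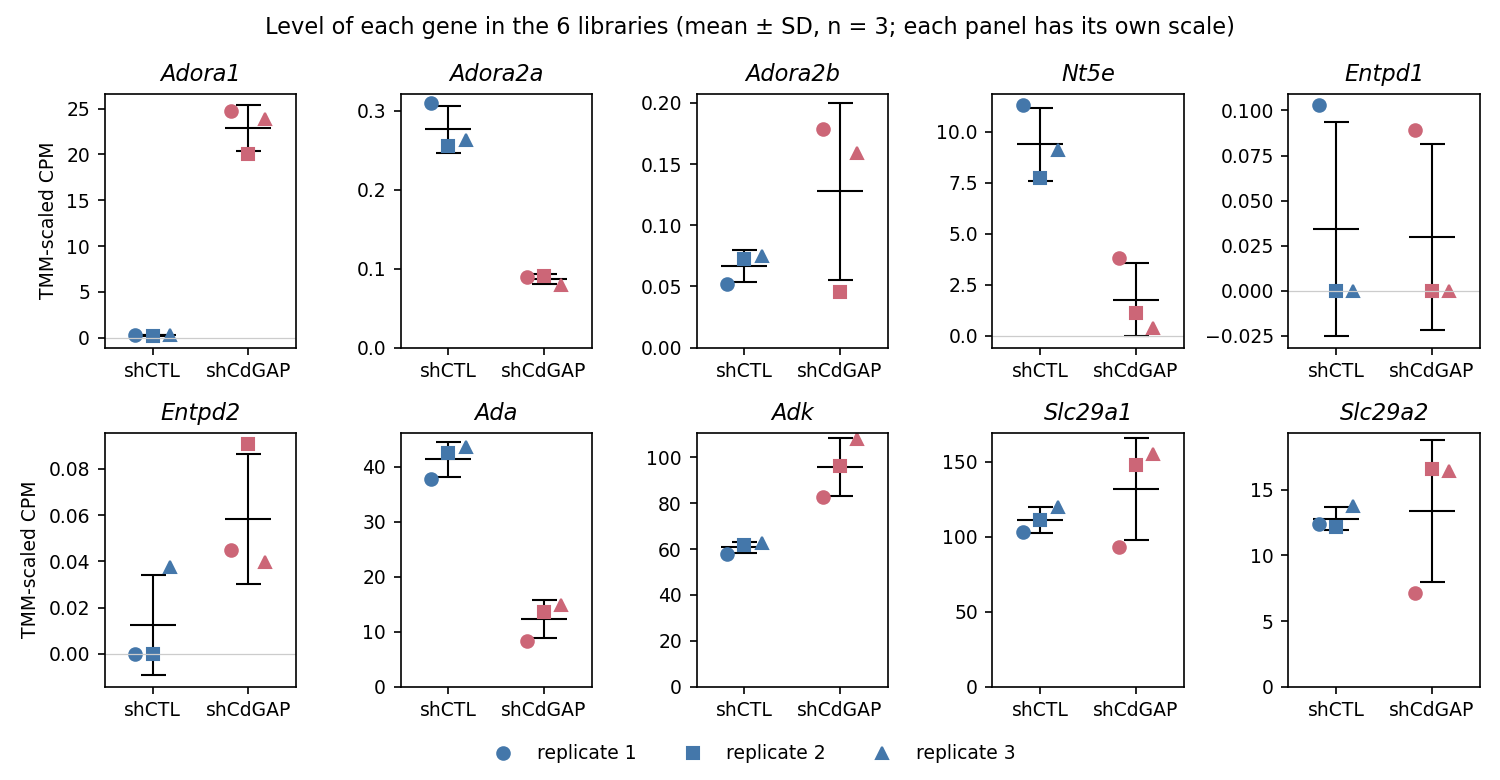
TMM-scaled CPM (y axis, a scale of its own in each panel) of the 10 genes in shCTL (blue) and shCdGAP (red) libraries, with circles, squares and triangles for replicates 1, 2 and 3 and black bars for mean ± SD (n = 3). Adora1 rises from 0.264 to 22.9 CPM with tight replicates, Ada falls from 41.3 to 12.2 CPM, and shCdGAP replicate 1 lies away from the other shCdGAP libraries for Nt5e, Slc29a1 and Slc29a2.

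Adora2a (ENSMUSG00000020178, chromosome 10, 75316943 to 75334788, plus strand) had 6, 7 and 7 fragments in shCTL and 2, 2 and 2 in shCdGAP. This was 0.310, 0.255 and 0.263 CPM against 0.0894, 0.0907 and 0.0793 CPM, so the groups were separate at a level near the limit of detection, where 3 counts are worth 0.109 to 0.155 CPM. The ratio of shCTL to shCdGAP from the summed counts, 20 against 6, was 3.16 (exact 95% binomial interval 1.22 to 9.62). Adora2a did not reach the minimum count for the test. With no filter on low counts its log2 fold change was −1.62 and did not pass (adjusted p = 0.0918). Adora2b (ENSMUSG00000018500, chromosome 11, 62248984 to 62266453, plus strand) had 1, 2 and 2 fragments in shCTL and 4, 1 and 4 in shCdGAP. Its groups overlapped and it was not tested.

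Per kilobase of exon, the scale on which genes can be compared with each other, the receptors changed places. In shCTL, Adora2a was the most abundant of the 3 (0.109 ± 0.0116 CPM per kb), above Adora1 (0.0457 ± 0.0123) and Adora2b (0.0361 ± 0.00705), and the ranges of these last 2 overlapped. In shCdGAP, Adora1 stood at 3.95 ± 0.442 CPM per kb, with Adora2b at 0.0691 ± 0.039 and Adora2a at 0.0341 ± 0.00246. Adora1 made up 26.3%, 18.3% and 26.4% of the summed level of the 3 receptor genes per kilobase in shCTL and 97.0%, 98.3% and 97.2% in shCdGAP. The receptor transcripts detected in shCdGAP were therefore almost all of the Gi-coupled type, while in shCTL all 3 receptors were near the detection limit. Adora3, the remaining adenosine receptor gene, had 0 counts in all 6 libraries.

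**Figure D2:**
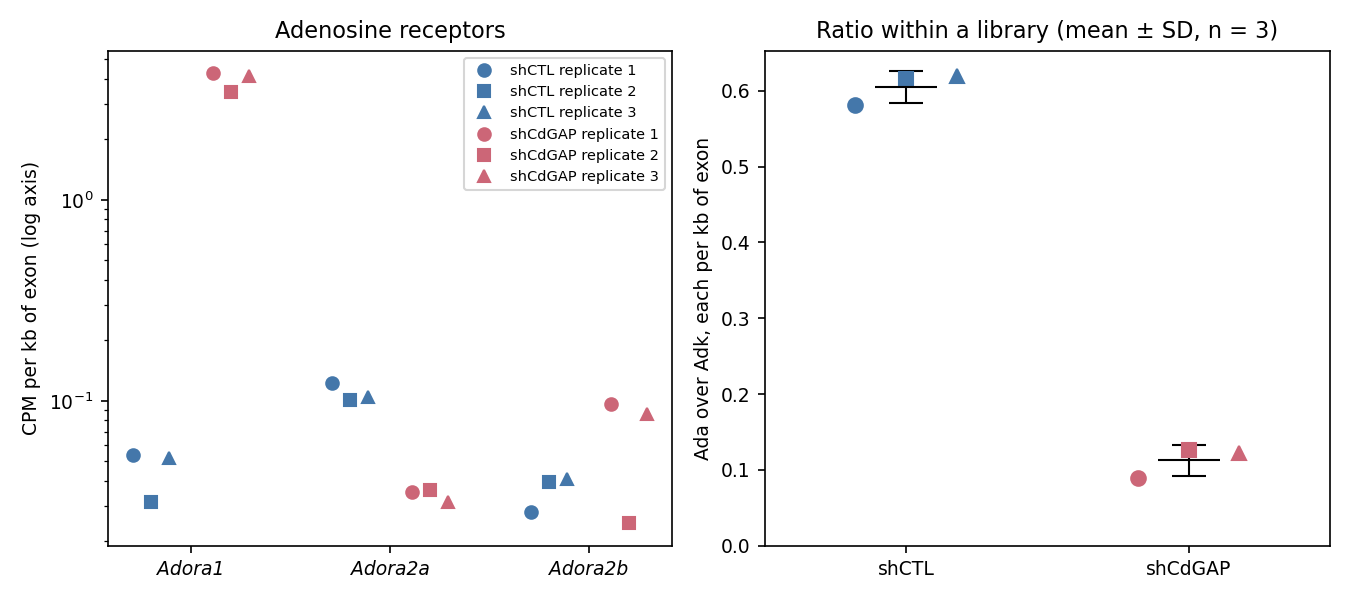
Left, CPM per kilobase of exon (log axis) of the adenosine receptor genes, 1 point per library, blue for shCTL and red for shCdGAP; only Adora1 in shCdGAP exceeds 1 CPM per kb. Right, Ada over Adk per kilobase in each library with mean ± SD (n = 3); the shCTL libraries lie between 0.581 and 0.619 and the shCdGAP libraries between 0.0894 and 0.126.

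Genes beside Adora1 were examined after its values had been seen. Mybph overlaps the end of Adora1 on the opposite strand, had 1 fragment summed over the 6 libraries, and was counted apart from Adora1 by strand. On the other side, Myog, which encodes the muscle regulator myogenin, had 1 fragment summed over the 6 libraries. Chil1, a chitinase-like gene, had 0, 2 and 4 fragments in shCTL and 2, 56 and 87 in shCdGAP, so it was near background in shCdGAP replicate 1, where Adora1 was as high as in the other shCdGAP libraries. Ppfia4 had 48 fragments over shCTL and 18 over shCdGAP. Tmem183a, the nearest well-expressed gene, had 11232 over shCTL and 10238 over shCdGAP. Chit1 had 25 fragments over shCTL and 7 over shCdGAP. Of the 8 neighbours examined, 1 had a higher total in shCdGAP, and that was Chil1. Gm8618, Gm24517, Mybph and Myog had at most 3 fragments over either group, too few to show a direction.

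The pattern of Adora1 over the 6 libraries was matched most closely by Lad1 (Pearson r = 0.9998 on log2 CPM), which encodes the anchoring filament protein ladinin, then Loxl2, a lysyl oxidase (0.9985), Prr3 (0.9984), Zfp91 (0.9983) and the latrophilin receptor gene Adgrl2 (0.9978). These 5 were the highest among 10626 genes whose higher group averaged 5 CPM or more. The libraries fall into 2 groups, so r mostly records a difference between them, and 601 genes had an r above 0.95. The sizes of the differences were unlike: Lad1 stood at 219 ± 4.6 and 400 ± 7.75 CPM in shCTL and shCdGAP and Loxl2 at 1.22 ± 0.108 and 53.1 ± 0.682 CPM.

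Among the cell surface enzymes, Nt5e (ENSMUSG00000032420, chromosome 9, 88327197 to 88372092, plus strand), which makes adenosine from AMP, was lower in every shCdGAP library than in any shCTL library, with a wide spread. Its levels were 11.3, 7.75 and 9.10 CPM in shCTL (9.38 ± 1.79) and 3.80, 1.13 and 0.396 CPM in shCdGAP (1.78 ± 1.79). shCdGAP replicate 1, the library with the least Arhgap31, kept the most Nt5e of its group. Nt5e had 85, 25 and 10 fragments in shCdGAP. With the minimum count scaled to library size, its shCdGAP libraries alone would not have passed the filter. Nt5e was tested through shCTL, so its fold changes and adjusted p-values are a description. The mean was 5.28-fold lower in shCdGAP, and the log2 fold change of −2.41 ± 0.711 (SE) missed the threshold (adjusted p = 0.0565). It passed with the replicate number as a block (−2.77, adjusted p = 0.0397), with no filter on low counts (−2.44, adjusted p = 0.0299), with DESeq2 (−2.42, adjusted p = 0.0026) and without shCdGAP replicate 1 (−3.62, adjusted p = 2e-04). It did not pass with RLE scaling (adjusted p = 0.0528), nor without shCTL replicate 1, 2 or 3 (0.142, 0.129 and 0.142) or shCdGAP replicate 2 (0.164). Without shCdGAP replicate 3, the lowest library, it was −1.92 and did not pass (adjusted p = 0.0596).

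Entpd1 and Entpd2, which can supply AMP to Nt5e, were almost absent. Entpd1 (CD39; ENSMUSG00000048120, chromosome 19, 40612366 to 40741602) had 2, 0 and 0 fragments in shCTL and again 2, 0 and 0 in shCdGAP. Entpd2 (ENSMUSG00000015085, chromosome 2, 25395874 to 25401321) had 0, 0 and 1 in shCTL and 1, 2 and 1 in shCdGAP. Neither reached the minimum count for the test, no library of either rose above 3 counts, and a difference between groups was not detectable at this depth. Other genes overlap both on the same strand, which makes their counts uncertain. Entpd8, a further cell surface member of the family, was detected at 3.40 ± 1.25 CPM in shCTL and 2.30 ± 0.683 CPM in shCdGAP and was not called (adjusted p = 0.326).

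Ada and Adk, the enzymes that compete for intracellular adenosine, moved in opposite directions. Ada (ENSMUSG00000017697, chromosome 2, 163726584 to 163750239, minus strand) stood at 37.8, 42.6 and 43.6 CPM in shCTL (41.3 ± 3.09) and 8.31, 13.6 and 14.8 CPM in shCdGAP (12.2 ± 3.46). No shCdGAP library came near the shCTL range, and the lowest was again replicate 1. Ada fell 3.37-fold (log2 fold change −1.75 ± 0.233, adjusted p = 0.00363), and it was called in every alternative run, with log2 fold changes from −1.91 to −1.53 and an adjusted p of at most 0.0216 when a library was left out. Adk (ENSMUSG00000039197, chromosome 14, 21052574 to 21448568, plus strand) stood at 57.9, 61.6 and 62.7 CPM in shCTL (60.7 ± 2.48) and 82.7, 96.4 and 108 CPM in shCdGAP (95.8 ± 12.7). It rose 1.58-fold (log2 fold change 0.66 ± 0.126, adjusted p = 0.0133) with groups that did not overlap. The Adk call was lost without shCTL replicate 1 (adjusted p = 0.0755), 2 (0.0677) or 3 (0.061) or shCdGAP replicate 2 (0.0537), at log2 fold changes of 0.62 to 0.68. The annotated span of Adk also overlaps that of Gm26372 on the same strand, and whether this affects its counts was not tested.

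The ratio of Ada to Adk within a library does not depend on how libraries are scaled. Per kilobase of exon it was 0.581, 0.615 and 0.619 in shCTL (0.605 ± 0.0211, SD, n = 3) and 0.0894, 0.126 and 0.122 in shCdGAP (0.112 ± 0.0199). Every shCTL library thus held more than 4 times the ratio of any shCdGAP library. Adk was the most abundant of the 10 genes per kilobase in both groups, at 34.1 ± 1.39 CPM per kb in shCTL and 53.8 ± 7.15 in shCdGAP. Ada was the third in both, at 20.6 ± 1.54 and 6.12 ± 1.73 CPM per kb, and in shCdGAP its range overlapped that of Slc29a2 (5.42 ± 2.19).

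The transporter genes were expressed in both groups and were not called. Slc29a1 (ENSMUSG00000023942, chromosome 17, 45585200 to 45599606, minus strand), the gene of the main equilibrative nucleoside transporter ENT1, stood at 103, 111 and 120 CPM in shCTL and 93.0, 148 and 155 CPM in shCdGAP. Slc29a2 (ENSMUSG00000024891, chromosome 19, 5024006 to 5031971, plus strand), which encodes ENT2, stood at 12.4, 12.2 and 13.8 CPM in shCTL and 7.15, 16.6 and 16.4 CPM in shCdGAP. For both genes shCdGAP replicate 1 was below all shCTL libraries and the other shCdGAP libraries were above them. The log2 fold changes were 0.24 ± 0.204 (adjusted p = 0.449) for Slc29a1 and 0.06 ± 0.325 (adjusted p = 0.916) for Slc29a2. Without shCdGAP replicate 1 both passed, at 0.46 (adjusted p = 0.0046) and 0.38 (adjusted p = 0.0363), and without shCdGAP replicate 2 or 3 the Slc29a2 value turned to −0.11. Slc29a1 exceeded Slc29a2 per kilobase by 5.13 to 5.62 times in shCTL and by 5.47 to 8.02 times in shCdGAP, and these ranges overlapped.

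Of the 9 genes other than Adora1, 5 could be tested: Adk rose, Ada fell, and Nt5e, Slc29a1 and Slc29a2 were not called. Of these 5, 3 had groups that did not overlap (Ada, Adk and Nt5e), and Nt5e was tested through shCTL alone. The median log2 fold change of the 5 was 0.06, against 0.01 over all tested genes. Of all 13483 genes, 21.7% were called, and because the members were chosen with this contrast known, their count is not compared with that share.

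**Figure D3:**
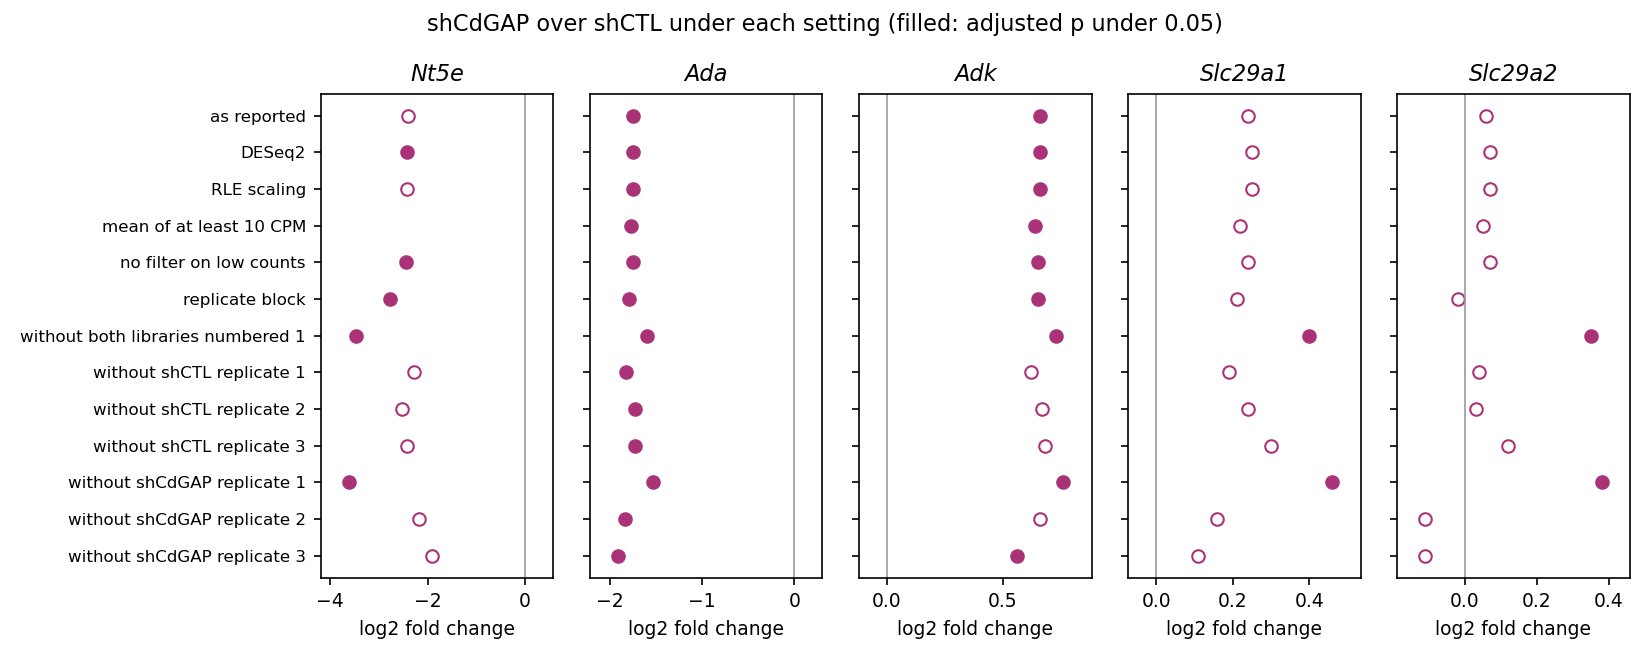
Log2 fold change of shCdGAP over shCTL (x axis, a scale of its own in each panel) for the 5 tested genes other than Adora1 under the reported fit and each alternative (rows), filled where the adjusted p is under 0.05; Nt5e has no point where a mean of at least 10 CPM is required. Ada stays between −1.91 and −1.53 and filled throughout, while Nt5e, Slc29a1 and Slc29a2 become filled when shCdGAP replicate 1 is left out.

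Markers of other cells that explant cultures could hold were read beside Nt5e and Ada, which leukocytes, endothelium and fibroblasts also express. The summed level of 10 leukocyte markers was 19.3 to 24.0 CPM in shCTL and 7.10 to 18.5 CPM in shCdGAP. In shCTL most of it was Cd68 (17.6 ± 3.6 CPM), which averaged 6.44 ± 4.04 CPM in shCdGAP. The other 9 summed to 2.32 to 3.89 CPM in shCTL and 4.16 to 7.64 CPM in shCdGAP, with Adgre1 and Tyrobp at 0 counts in all libraries and Ptprc, the pan-leukocyte gene CD45, at 2, 5 and 8 fragments in shCTL and 8, 5 and 2 in shCdGAP. Itgam went the other way from Cd68, with 6, 7 and 2 fragments in shCTL and 26, 36 and 36 in shCdGAP, and Csf1r averaged 1.87 ± 0.738 and 3.86 ± 1.98 CPM with overlapping groups. The 7 endothelial markers summed to 1.17 to 1.46 CPM in shCTL and 0.0907 to 0.357 CPM in shCdGAP, with Emcn and Cldn5 at 0. The 7 fibroblast markers summed to 5.35 to 6.19 and 3.41 to 7.02 CPM, with Lum and Thy1 at 0. The part of such cells in the lower Nt5e and Ada was not tested, and in bulk RNA fewer cells with a transcript and less of it per cell cannot be told apart.

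The 2 further purinergic receptor genes that were called, both for ADP, were lower in shCdGAP. Of 17 further purinergic receptor genes, 7 could be tested, 2 fell and 0 rose (11.4% and 10.4% of all genes; list median log2 fold change −0.17), and 1 rose without shCdGAP replicate 1. The count that rose was also 0 by DESeq2 and 0 at an unadjusted p under 0.05 by edgeR. P2ry1, a receptor for ADP, stood at 7.33, 6.77 and 6.06 CPM in shCTL and 1.65, 0.589 and 0.912 CPM in shCdGAP (log2 fold change −2.67 ± 0.375, adjusted p = 0.00441). P2ry12, the ADP receptor targeted by antiplatelet drugs and a marker of microglia, stood at 9.75, 6.91 and 6.51 CPM in shCTL and 0.313, 1.04 and 1.51 CPM in shCdGAP (log2 fold change −3.00). It had 7, 23 and 38 fragments in shCdGAP and passed the filter through shCTL, so its place among the 2 that fell is a description. For both genes the groups were well apart. The leukocyte and endothelial marker values given above apply here too, and the part of such cells in P2ry12 was not tested. The 5 not called included P2rx4, an ATP-gated channel gene, at 27.0, 30.5 and 27.8 CPM in shCTL and 99.6, 27.2 and 21.7 CPM in shCdGAP, where the high value was that of shCdGAP replicate 1. Among the genes not tested, P2ry14 had 4 fragments over shCTL and 30 over shCdGAP, and P2ry6 had 17 and 31. The other untested genes had at most 2 fragments over either group.

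Other enzymes that act on nucleotides outside the cell or in the secretory pathway went both ways. Of 17 such genes, 14 could be tested, 4 rose and 3 fell (10.4% and 11.4% of all genes; list median log2 fold change 0.76). Alpl, the tissue-nonspecific alkaline phosphatase that can also turn AMP into adenosine, had 0.103, 0.218 and 0.226 CPM in shCTL and 96.5, 47.1 and 26.2 CPM in shCdGAP (log2 fold change 8.19). Its shCTL counts of 2, 6 and 6 were below the minimum of 10, so it entered the tested genes through shCdGAP alone, and its place among the 4 that rose is a description. It was thus almost silent in shCTL, like Adora1, but its shCdGAP libraries differed from each other far more. Cd38, an NAD-consuming ectoenzyme, rose from 1.04 ± 0.255 to 3.86 ± 1.22 CPM (adjusted p = 0.00969). The phosphodiesterase gene Enpp4 rose from 29.7 ± 4.09 to 57.2 ± 9.24 CPM (adjusted p = 0.0113). Enpp3 rose as well (1.73 ± 0.36 on the log2 scale, adjusted p = 0.0182). Enpp1, which splits ATP into AMP and pyrophosphate, fell from 30.3 ± 4.13 to 9.30 ± 4.19 CPM (adjusted p = 0.014), Entpd6 from 22.3 ± 0.628 to 12.1 ± 1.09 CPM (adjusted p = 0.00552) and Cant1, a calcium-activated nucleotidase, from 115 ± 8.59 to 82.6 ± 1.4 CPM (adjusted p = 0.0164). The Enpp1 call was lost without shCdGAP replicate 2 (adjusted p = 0.0602), the Enpp4 call without shCTL replicate 1 or 3 (up to 0.0555), the Enpp3 call without shCTL replicate 2 or 3 (up to 0.0806), and the Cant1 call without shCTL replicate 2, shCTL replicate 3 or shCdGAP replicate 2 (up to 0.0928). The count that rose was 2 without shCTL replicate 3, and the count that fell was 1 without shCdGAP replicate 2.

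Of 15 genes of nucleotide release and other nucleoside transport, 7 could be tested, 1 rose and 0 fell (10.4% and 11.4% of all genes; list median log2 fold change 0.02). Abcc5, an exporter of cyclic nucleotides, rose from 189 ± 8.96 to 285 ± 50.9 CPM (0.59 ± 0.146, adjusted p = 0.0317). That call was lost with the replicate block (adjusted p = 0.0561) and without any shCTL library or shCdGAP replicate 2 (adjusted p up to 0.121). Gja1, the connexin 43 gene, stood at 151, 145 and 143 CPM in shCTL and 23.5, 70.6 and 90.7 CPM in shCdGAP and was not called (adjusted p = 0.0988). The count that fell was 1 by DESeq2, 2 at an unadjusted p under 0.05 by edgeR and 3 without shCdGAP replicate 1. The concentrative transporters Slc28a1, Slc28a2 and Slc28a3 had 1, 24 and 1 fragments over shCTL and 1, 1 and 3 over shCdGAP, too few to test.

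Inside the cell, the genes of purine salvage and breakdown that were called included 3 adenylate kinase genes. Of 32 listed genes, 31 were matched and 26 tested, 3 rose and 4 fell (list median log2 fold change −0.02), which is near the shares of all genes, 10.4% and 11.4%. The cytosolic adenylate kinase gene Ak1 stood at 149, 178 and 178 CPM in shCTL and 52.1, 47.1 and 42.4 CPM in shCdGAP (−1.83 ± 0.13, adjusted p = 0.000426). Ak4 fell from 41.3 ± 5.37 to 15.3 ± 5 CPM (adjusted p = 0.00938), and Ak3, which encodes a mitochondrial isoform, rose from 166 ± 2.87 to 275 ± 41.6 CPM (adjusted p = 0.0103). Mtap, which releases adenine from methylthioadenosine, fell from 477 ± 3.13 to 219 ± 44.7 CPM (adjusted p = 0.00489). A fall was also called for the AMP deaminase gene Ampd3, from 63.0 to 36.2 CPM (adjusted p = 0.0234). Dguok, a mitochondrial kinase of purine deoxynucleosides, and the nucleotidase gene Nt5c3b rose with adjusted p = 0.0496 and 0.0329. The salvage enzymes Aprt (215 and 246 CPM) and Hprt (218 and 254 CPM) were not called. The Ak3 call was lost without shCTL replicate 2 or 3 (adjusted p up to 0.0598), the Ampd3 call without shCTL replicate 2 or shCdGAP replicate 2 or 3 (up to 0.0878), the Dguok call with a mean of 10 CPM required (0.0622) and without any shCTL library or shCdGAP replicate 2 (up to 0.17), and the Nt5c3b call with the replicate block (0.055), with no filter on low counts (0.0805) and without any library other than shCdGAP replicate 1 (up to 0.139). The count that rose was 1, 0 and 0 without shCTL replicates 1, 2 and 3, 5 without shCdGAP replicate 1 and 1 without shCdGAP replicate 2, and the count that fell was 8 without shCdGAP replicate 1.

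Of 13 genes of de novo purine synthesis, all tested, 1 rose and 0 fell by edgeR (3 at an unadjusted p under 0.05), 1 fell by DESeq2, and the list median log2 fold change was −0.29. Over all genes 10.4% rose and 11.4% fell, so these counts do not set the list apart. Paics, a bifunctional enzyme of the pathway, rose from 388 ± 15.3 to 552 ± 10.7 CPM (0.51 ± 0.0884, adjusted p = 0.00944), and lost its call without shCTL replicate 2 (adjusted p = 0.0639) or 3 (0.0516). Without shCdGAP replicate 1, 3 rose and 3 fell.

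**Figure D4:**
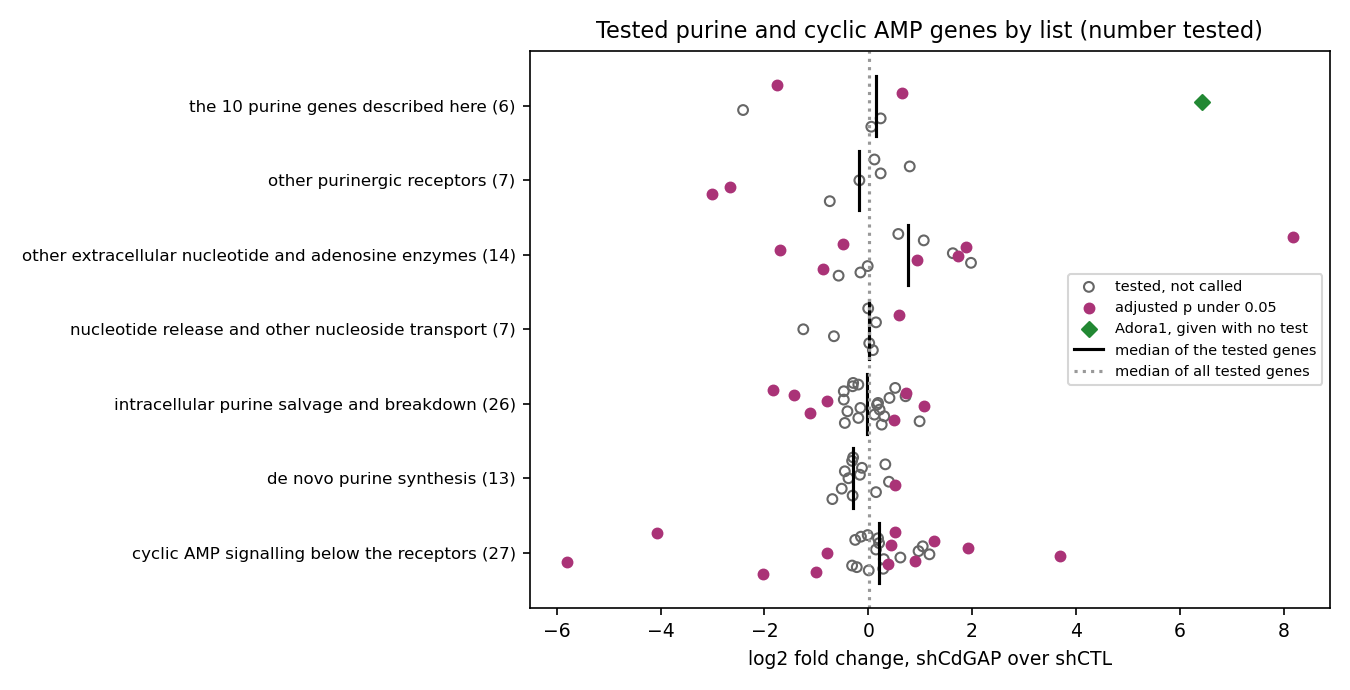
Log2 fold change of shCdGAP over shCTL (x axis) for the tested genes of each list (rows, number tested in brackets), filled where the adjusted p is under 0.05, with a black line at each list median and a dotted line at the median of all tested genes (0.01). Adora1 (6.43) and Alpl (8.19) lie far to the right, and Pde8b (−5.81) and Adcy7 (−4.07) far to the left.

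Genes through which adenosine receptors act on cyclic AMP changed in both directions. Of 37 such genes, 27 could be tested, 7 rose and 5 fell (10.4% and 11.4% of all genes; list median log2 fold change 0.21). Among the inhibitory G protein subunits to which the A1 receptor couples, Gnai1 stood at 40.7, 43.3 and 40.1 CPM in shCTL and 116, 87.5 and 92.4 CPM in shCdGAP (1.26 ± 0.137, adjusted p = 0.00175). Gnai3 rose from 230 to 313 CPM (adjusted p = 0.02). Gnai2 (380 and 441 CPM, adjusted p = 0.127) and Gnas, the stimulatory subunit (836 and 926 CPM, adjusted p = 0.378), were not called. Gnao1 stood at 0.357 ± 0.139 CPM in shCTL, with only 10, 8 and 7 fragments, and at 1.34 ± 0.275 CPM in shCdGAP. Its shCTL libraries alone would not have passed the filter, so its place among the 7 that rose is a description. The Gnai3 call was lost with no filter on low counts (adjusted p = 0.053) and without any library other than shCdGAP replicate 1 (up to 0.105). Gnao1 dropped out of the risen genes without shCTL replicate 2 or 3 (up to 0.0698).

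The adenylyl cyclases, which make cyclic AMP, differed from each other. Adcy7 stood at 17.7, 16.6 and 16.3 CPM in shCTL and 0.983, 0.771 and 1.23 CPM in shCdGAP, a 16.9-fold fall (−4.07 ± 0.218, adjusted p = 0.000181). Adcy6, the most abundant of them, rose from 110 to 157 CPM (adjusted p = 0.0267), a call lost without any shCTL library or shCdGAP replicate 2 (up to 0.117), and Adcy9 stood at 27.7 and 27.6 CPM (adjusted p = 0.981). Among the phosphodiesterases that break cyclic AMP down, Pde8b had 191 fragments over shCTL and 3 over shCdGAP (ratio 60.4, exact 95% binomial interval 20.4 to 295). It entered the tested genes through shCTL alone, so its place among the 5 that fell is a description. Pde3b fell from 65.4 to 37.6 CPM (adjusted p = 0.00367). Pde4c rose from 0.722, 1.24 and 0.715 CPM to 23.9, 6.35 and 5.04 CPM, highest in shCdGAP replicate 1 (3.70 ± 0.713, adjusted p = 0.0138). Its call was lost without shCTL replicate 1 or 3 (up to 0.0662). Pde8a rose too (adjusted p = 0.0151), a call lost without shCTL replicate 2, shCTL replicate 3 or shCdGAP replicate 2 (up to 0.0576).

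Of the proteins that cyclic AMP binds or switches on, the exchange factor genes Rapgef4 (4.24 ± 0.711 to 1.05 ± 0.0216 CPM, adjusted p = 0.00185) and Rapgef3 (44.4 to 22.3 CPM, adjusted p = 0.0186) fell. The catalytic subunit gene Prkaca rose from 87.5 to 114 CPM (adjusted p = 0.0452). The Rapgef3 call was lost without shCTL replicate 1, shCTL replicate 2 or shCdGAP replicate 2 (up to 0.0709), and the Prkaca call with the replicate block (0.051), RLE scaling (0.0529), either other filter on low counts (up to 0.124) and without any library other than shCdGAP replicate 1 (up to 0.178). The transcription factor gene Creb1 was not called (62.7 and 71.5 CPM, adjusted p = 0.421). Over the whole list the count that rose was 3, 2 and 1 without shCTL replicates 1, 2 and 3 and 3 without shCdGAP replicate 2. Whether these differences stand downstream of Adora1 was not tested.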

How the data were processed

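Each library came with a deposited table of raw counts, fragments assigned to each gene. Per the file headers, the authors made them with featureCounts 1.4.6 on TopHat alignments, using Ensembl release 77 on GRCm38, pairs with both ends aligned, no chimeric pairs and strand setting 2. The submitters' processing notes also name DESeq, Cuffdiff 2.2.1, TopHat2 2.0.14, Trimmomatic 0.30 and CASAVA 1.8. GENCODE M21 symbols matched 40254 of 41214 genes.

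From the counts, edgeR 4.0.16 in R 4.3.3 compared shCdGAP with shCTL over all 6 libraries: filterByExpr (minimum count 10, minimum total 15), TMM scaling, the quasi-likelihood F test and Benjamini-Hochberg adjustment over 13483 genes, with 0.05 as the threshold for a call. This test gave each adjusted p unless DESeq2 (1.42.0) is named. The fit was also run on simulated data, but the outcome is not given here and no statement rests on it. Standard errors are the absolute log2 fold change over the square root of F. A CPM is a share of the TMM-scaled total in parts per 1e+06, and 1 count is worth 0.0364 to 0.0516 CPM. Intervals cover counting error only.

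Replicate numbers were checked for pairing: deviations of same-numbered libraries from their group means correlated at 0.36, 0.29 and 0.25, all above 0.1. This comes from the data, not the labels. Crossed numbers 2 and 3 gave 0.25 and 0.19, close to their same-numbered values, and every other crossing gave a negative value. Pairing of the libraries numbered 2 and 3 is therefore not shown. The reported fit has no block, and the replicate block was run only as an alternative. Blocked values are printed where they change a call.

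The members and lists were chosen with earlier results of these data known. The text names all members, up to 3 risen and 3 fallen genes with the smallest adjusted p in each list (or the 2 most abundant), the 5 genes most like Adora1 and Arhgap31. Other genes named were chosen after their values were seen. Alternatives were DESeq2, RLE scaling, 2 other filters, the replicate block, each library left out and both libraries numbered 1 left out. Sequences are from RefSeq.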

Additional observations from a re-analysis of the deposited data

How the results depend on the processing

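Ada kept its call in every alternative run, and the Adora1 value stayed within 6.20 to 6.55 when a library was left out. With a library left out, log2 fold changes ran from −1.91 to −1.53 for Ada, 0.56 to 0.76 for Adk, −3.62 to −1.92 for Nt5e, 0.11 to 0.46 for Slc29a1, −0.11 to 0.38 for Slc29a2 and −1.51 to −0.71 for Arhgap31. The replicate block turned Slc29a2 to −0.02 and gave Nt5e −2.77, which passed, as did Nt5e at −2.42 with DESeq2 and −2.44 with no filter on low counts. Nt5e missed the threshold with RLE scaling and without any library other than shCdGAP replicate 1. Because Nt5e passed the filter through shCTL, its values are a description under each of these settings. The block left 0 release and transport genes risen and 1 synthesis gene fallen, and among named genes it also ended the calls of Nt5c3b and Prkaca. DESeq2 found 1 fallen gene of synthesis and 1 of release and transport, and no filter on low counts found 2 of the latter.

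Where only genes averaging 10 CPM or more were fitted, 870 genes rose and 825 fell over all genes, 4 and 2 of the cyclic AMP list, 2 extracellular enzymes rose and 0 purinergic receptors fell. Fewer genes were tested there. Without both libraries numbered 1, the counts risen and fallen were 3475 and 3640 over all genes, 14 and 8 of the cyclic AMP list, 7 and 10 of salvage and breakdown, 3 and 5 of synthesis and 1 and 4 of receptors, and 4 release and transport genes fell. Nt5e (−3.48), Slc29a1 (0.40), Slc29a2 (0.35) and Arhgap31 (−0.76) then passed. The cause was not tested.

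With a library left out, 538 to 2753 genes rose and 856 to 3032 fell over all genes. In the lists, 1 to 10 cyclic AMP genes rose and 4 to 7 fell, 0 to 5 salvage genes rose and 3 to 8 fell, 0 to 3 synthesis genes rose and 0 to 3 fell, 0 to 1 release and transport genes rose and 0 to 3 fell, 2 to 5 extracellular enzymes rose and 1 to 3 fell, and 0 to 1 receptors rose and 2 to 3 fell. Depth limits Adora2a, Adora2b, Entpd1 and Entpd2, none of which reached the minimum count.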
